A study of Mus musculus with 6 samples.

Results

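Prkch, which encodes protein kinase C eta, was examined together with the other protein kinase C genes of the count table, Prkca, Prkcb, Prkcd, Prkce, Prkci, Prkcq and Prkcz. These 8 genes were 8 of the 16281 genes in the table, and each was found by its gene symbol. Prkch was selected on its difference between the groups compared here, so its difference is given as a description with no test. The other 7 genes were listed as members of the family.

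Transcripts were counted in CD8+ T cells from OT1 mice, C57BL/6 animals with the transgene Tg(TcraTcrb)1100Mjb, whose T cells carry a single T cell receptor that recognises a peptide of ovalbumin. The age of the mice is not given in the sources used here. Splenic cells (the series description also names lymph nodes) were activated on plates coated with anti-CD3 at 2 μg/ml, with soluble anti-CD28 at 2 μg/ml and IL-2 at 20 ng/ml, for 48 h, and were then grown in IL-2 for 3 days. The GSK group (n = 3) received 0.5 μM GSK2879552, an irreversible inhibitor of the histone demethylase LSD1, throughout both periods, and the Veh group (n = 3) received vehicle. Activation, expansion and the transgenic receptor were common to both groups, the cells were taken from 3 separate mice, and the labels do not say which cultures came from the same mouse. The question addressed was which transcripts of these kinases and of their pathway differ when LSD1 is inhibited during activation and expansion.

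Protein kinase C enzymes are serine and threonine kinases that carry signals from lipids made at the plasma membrane. The conventional enzymes, such as alpha and beta from Prkca and Prkcb, need calcium and diacylglycerol, the calcium-independent enzymes (delta, epsilon, eta and theta, from Prkcd, Prkce, Prkch and Prkcq) need diacylglycerol alone, and the atypical enzymes (iota and zeta, from Prkci and Prkcz) need neither. In T cells, phospholipase C gamma makes diacylglycerol after the receptor is engaged, and protein kinase C theta is known for its place at the contact with the antigen-presenting cell, where it acts through BCL10 and MALT1 on NF-kB. Protein kinase C eta is the closest relative of epsilon and is also known to reach that contact in T cells.

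Because the family is related by descent, the coding sequences were first compared to see whether reads of Prkch could be taken for reads of another member. Over aligned coding bases, Prkch was 70.4% identical to Prkce, 64.2% to Prkcq, 63.2% to Prkcd and 62.7% to Prkcb. The longest stretch of identical coding bases was 23 bases between Prkch and Prkce, the most of any listed member, 18 bases with Prkcd and 14 bases with Prkcq, all far shorter than the 150 bp reads named in the labels. Of all the 31-base words in the main transcripts of Prkch and of Prkcq, 0 were found in annotated transcripts of any other gene. The share was 0.298% in Prkca, 0.278% in Prkcb, 0.0355% in Prkcd, 0.852% in Prkce and 1.99% in Prkci. These shares cover the main transcripts only. Through their other annotated transcripts, Prkch shared words with 1429 other genes and Prkcq with 410. Among main transcripts Prkcz was the exception, since 44.6% of its words also occur in Prkcz2, a processed pseudogene at chr7:27882755-27884510. Counts of Prkcz are therefore uncertain, and Prkcz2 was not analysed here.

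The 6 libraries held between 18288447 and 18918811 counts in Veh and between 19149909 and 19846720 in GSK, so the groups do not overlap in depth, and all levels are given as CPM, the counts of a gene per 1000000 counts of its scaled library. The defining genes of CD8 T cells (Cd3d, Cd3e, Cd3g, Cd8a, Cd8b1, Cd2 and Lck) summed to between 3089 and 3215 CPM in Veh and between 2999 and 3180 in GSK. Of these 7 genes, 2 rose and 3 fell at an edgeR adjusted p under 0.05. Over all genes tested, 16.6% rose and 15.5% fell. The 3 that fell were the CD3 chains, with log2 fold changes of -0.16 for Cd3d, -0.23 for Cd3e and -0.38 for Cd3g. Those that rose were Cd2, by 0.15, and Lck, by 0.13, so the similar sums do not mean that each gene was unchanged. Markers of other cells were low. Cd4 reached at most 1.79 CPM, the 5 B cell markers summed to at most 7.94, the 5 myeloid markers to at most 4.68, the 2 NK markers to at most 3.73, the 4 globin genes to at most 0.365 and the platelet gene Pf4 to at most 0.0536. None of the 4 tested genes of CD4, B or myeloid cells, nor Klrb1c of NK cells, passed the test in either direction.

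Prkch lies at chr12:73584796-73778185 on the + strand (GRCm38, Entrez gene 18755), over 193 kb, and its main transcript has 14 exons and 3545 bases, of which 2049 are coding. Its region overlaps LOC115488016 at the 5′ end and the long noncoding gene Gm34189 at the 3′ end, and neither has a row in the table. Whether the counting used the strand is not given in the sources used here, so reads of overlapping genes cannot be told apart. Of the other members, Prkca overlaps Mir7223, Gm51922 and Gm11655, Prkcb overlaps Gm51497 and Gm14388, Prkcd overlaps Gm52147, Prkce overlaps Gm52296, 2010106C02Rik and Gm30284, and Prkci overlaps Mir7008, all without a row here, and Prkcq and Prkcz overlap no annotated gene. The nearest measured gene before Prkch, Tmem30b, 38.4 kb away, had between 4 and 9 counts in every sample and was not tested. The nearest measured gene after Prkch, 123 kb away, was Hif1a, a transcription factor of the oxygen response. Hif1a stood at 537 ± 13.6 CPM in Veh and 597 ± 21.7 in GSK (mean ± SD, n = 3), and it rose, with a log2 fold change of 0.15 (SE 0.039, edgeR adjusted p = 0.0095). Without GSK replicate 1 the adjusted p of Hif1a was 0.064.

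Prkch was abundant in Veh and clearly less abundant in GSK. In Veh it stood at 225, 218 and 237 CPM, and in GSK at 144, 143 and 134 CPM, from 4132, 4073 and 4517 reads against 2743, 2823 and 2570 reads. All 3 Veh samples lay above all 3 GSK samples, and the gap between the groups was wider than the spread within either. Across all genes tested, 46.7% had groups that did not overlap, in either direction. The mean was 227 ± 9.62 CPM in Veh and 140.3 ± 5.48 in GSK (SD, n = 3), a log2 fold change of -0.69 (SE 0.048), which puts GSK at 61.8% of Veh. Under 12 other ways of fitting the data, including leaving out each sample, the log2 fold change of Prkch stayed between -0.72 and -0.66. Because Prkch was selected on its difference in these same samples, that range is a description and adds no support. In bulk RNA, fewer cells that express a gene and less RNA per cell cannot be told apart.

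**Figure D1:**
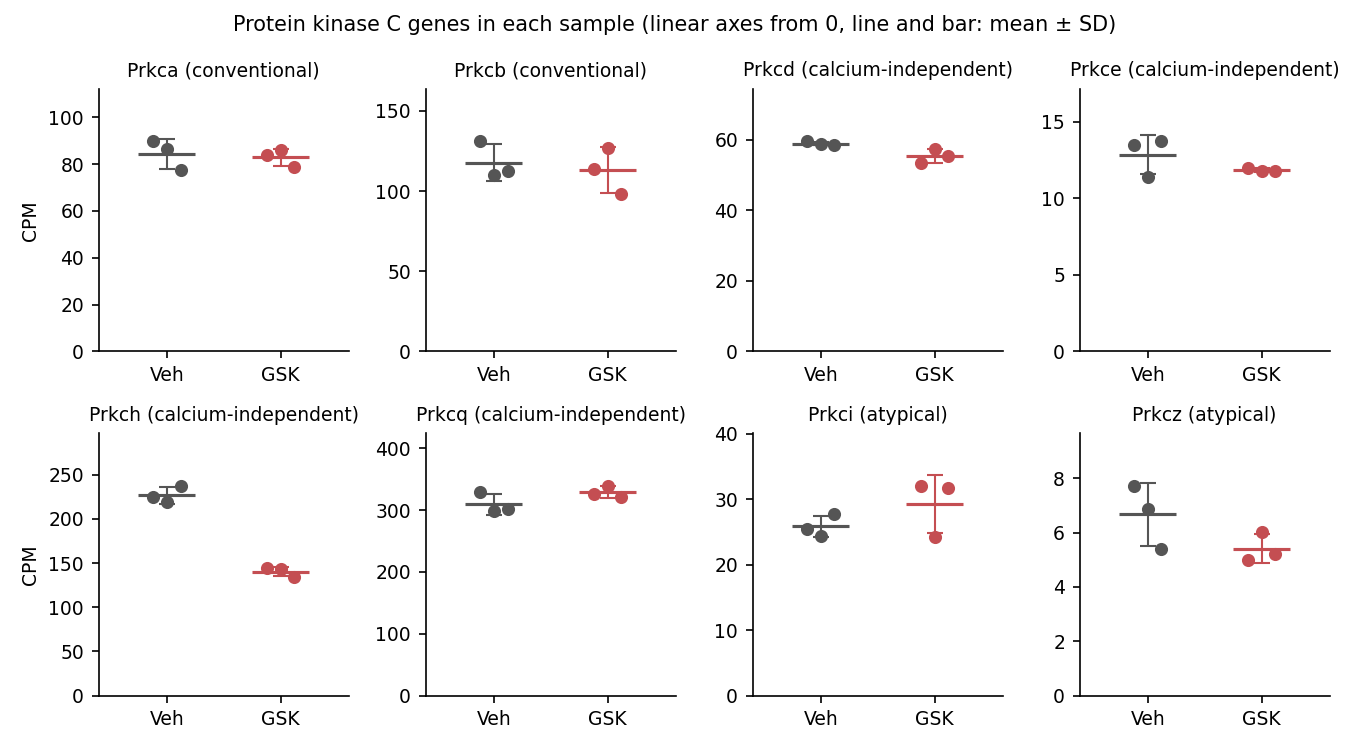
CPM of the 8 protein kinase C genes in each sample, on linear axes from 0 that differ between panels, with Veh in grey and GSK in red, a dot per sample, and the mean ± SD as line and bar (n = 3 per group). The 3 GSK samples of Prkch sit between 134 and 144, below the 3 Veh samples between 218 and 237, and apart from Prkch only Prkcd shows groups that do not overlap.

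The 7 other members were tested in the edgeR fit across all 11698 genes tested, and 0 of 7 passed an adjusted p of 0.05 in either direction. Across all genes tested, 16.6% passed it as higher in GSK and 15.5% as lower, and with a fold change over 1.5 as well the shares were 2.22% and 4.09%. At an unadjusted p under 0.05 the count among the 7 was also 0, and DESeq2 called 0 of 7. The groups did not overlap for 1 of the 7, Prkcd, against 46.7% of all genes tested with such a separation in either direction. The median log2 fold change over all genes tested was -0.0039.

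Prkcq, the theta isoform (chr2:11171905-11301226, + strand), was the most abundant member in both groups. It stood at 329, 298 and 302 CPM in Veh and at 326, 339 and 321 in GSK. The highest Veh sample lay within the GSK range, so the groups overlapped. The log2 fold change was 0.086 (SE 0.046, 95% interval -0.013 to 0.19) with an adjusted p of 0.17 from edgeR, and the interval reaches a level 1.14-fold that of Veh.

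Prkcd, the delta isoform (chr14:30595353-30626414, - strand), a kinase known from apoptosis and from B cell tolerance, stood at 59.5, 58.8 and 58.4 CPM in Veh and at 53.4, 57.4 and 55.4 in GSK. Each Veh sample was above each GSK sample, but the gap between the nearest samples was smaller than the SD within GSK (2.02 CPM). Its log2 fold change was -0.089 (SE 0.054, 95% interval -0.20 to 0.027, edgeR adjusted p = 0.23).

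Prkce, the epsilon isoform (chr17:86167785-86657919, + strand) and the closest relative of Prkch, was far less abundant. It stood at 13.5, 11.4 and 13.7 CPM in Veh and at 11.97, 11.8 and 11.8 in GSK, where the 3 samples lay within the Veh range. The log2 fold change was -0.12 (SE 0.11, 95% interval -0.35 to 0.11, edgeR adjusted p = 0.42).

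The conventional isoforms had the log2 fold changes closest to 0. Prkca, the alpha isoform (chr11:107933387-108343888, - strand), stood at 89.7, 86.5 and 77.4 CPM in Veh and at 83.8, 86.0 and 79.0 in GSK, and all GSK values lay within the Veh range. Its log2 fold change of -0.026 (SE 0.061, 95% interval -0.16 to 0.10) had an edgeR adjusted p of 0.77. Prkcb, the beta isoform (chr7:122289104-122634402, + strand), known for its part in B cell receptor signalling, stood at 131, 109.9 and 112 CPM in Veh and at 114, 127 and 98.4 in GSK, with groups that overlapped. The log2 fold change of Prkcb was -0.058 (SE 0.10, 95% interval -0.30 to 0.18, edgeR adjusted p = 0.71).

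The atypical isoforms, partners of the PAR polarity complex, had log2 fold changes of opposite sign, and neither passed. Prkci, the iota isoform (chr3:30995742-31052740, + strand), stood at 25.4, 24.5 and 27.7 CPM in Veh and at 32.1, 24.2 and 31.7 in GSK. GSK replicate 2 was the lowest of the 6 samples, and the other 2 GSK samples were the highest. The log2 fold change was 0.18 (SE 0.10, 95% interval -0.045 to 0.41, edgeR adjusted p = 0.21), and without GSK replicate 2 it was 0.30 with an adjusted p of 0.0099. Prkcz, the zeta isoform (chr4:155260118-155361428, - strand), stood at 7.72, 6.87 and 5.41 CPM in Veh and at 4.99, 6.02 and 5.21 in GSK, with overlapping groups and a log2 fold change of -0.30 (SE 0.17, 95% interval -0.66 to 0.061, edgeR adjusted p = 0.19). At these low counts the interval of Prkcz was the widest of the 7.

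**Figure D2:**
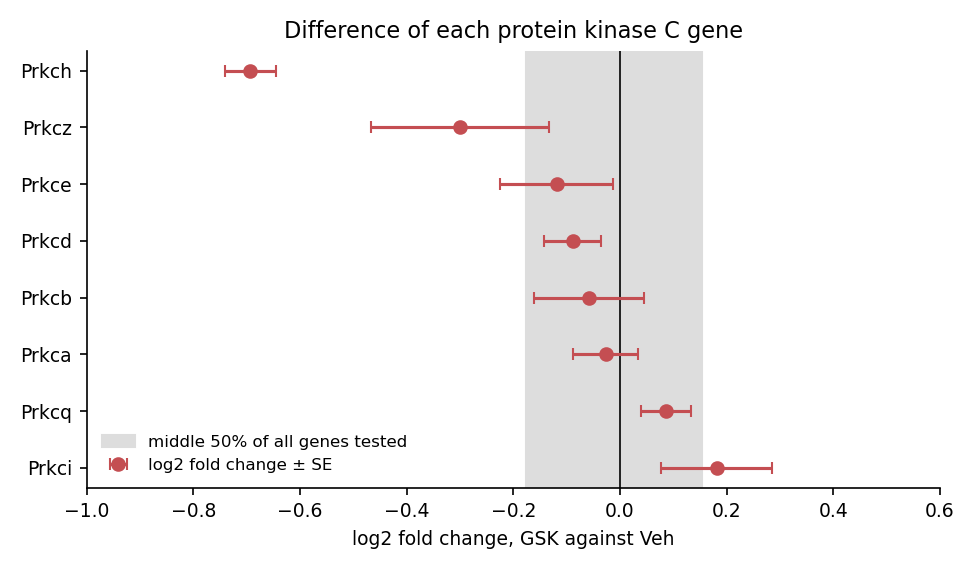
Log2 fold change of each protein kinase C gene between GSK and Veh (horizontal axis, negative is lower in GSK), with the standard error as bar, from 3 samples per group. The grey band holds the middle 50% of all genes tested. Prkch lies at -0.69, outside the band, while Prkca, Prkcb, Prkcd, Prkce and Prkcq lie inside it, and Prkci and Prkcz lie past its upper and lower edge.

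To compare levels between genes, CPM were divided by the length of the main transcript in kb. In Veh the order was Prkcq at 86.5 ± 4.74 CPM per kb, Prkch at 64.0 ± 2.71, Prkcb at 40.4 ± 3.95, Prkcd at 20.7 ± 0.189, Prkca at 10.05 ± 0.761, Prkci at 5.49 ± 0.353, Prkcz at 2.52 ± 0.442 and Prkce at 2.06 ± 0.207 (mean ± SD, n = 3). Neighbours in this order had ranges that did not overlap, apart from Prkcz and Prkce. In GSK the order of the means was the same, from Prkcq at 91.8 ± 2.61 and Prkch at 39.6 ± 1.55 to Prkcz at 2.05 ± 0.206 and Prkce at 1.89 ± 0.0168. What differed was the distance between Prkch and the next member. Prkch stood above Prkcb in every Veh sample, at 61.6 to 67.0 against 37.7 to 45.0 CPM per kb, while in GSK the range of Prkch, 37.8 to 40.6, lay inside that of Prkcb, 33.8 to 43.6. With the coding length in place of the transcript length, Prkca moved above Prkcd and Prkce above Prkcz, and Prkch then stood at 111 in Veh and 68.5 in GSK against 58.3 and 56.0 for Prkcb. On that scale the GSK samples of the 2 genes did not overlap, at 65.4 to 70.3 CPM per kb of coding length for Prkch and 48.8 to 62.9 for Prkcb.

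**Figure D3:**
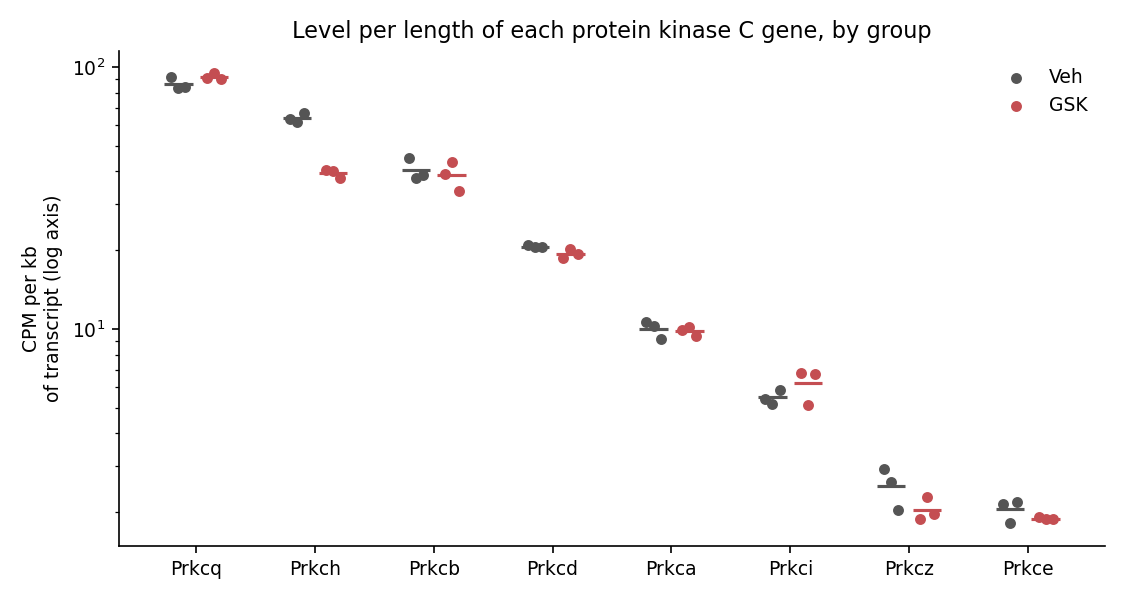
Level of each protein kinase C gene in CPM per kb of transcript (vertical log axis), ordered by the Veh mean, with a dot per sample and a line at each group mean, Veh in grey and GSK in red. Prkch is second in both groups, but its GSK samples, at 37.8 to 40.6, lie inside the range of Prkcb, which they do not when coding length is used (65.4 to 70.3 against 48.8 to 62.9).

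In shares of the family's transcripts, Prkch stood lower in GSK and Prkcq higher. Prkch made up 26.2%, 27.6% and 29.2% of the summed level per kb of the 8 members in Veh and 19.3%, 18.5% and 18.8% in GSK, so that its share was lower in each GSK sample than in any Veh sample. The share of Prkcq was 37.9%, 37.3% and 36.7% in Veh and 43.3%, 43.4% and 44.7% in GSK, although its own level did not pass the test. The level of Prkch per kb was 0.742 ± 0.053 times that of Prkcq in Veh and 0.431 ± 0.014 times in GSK (SD, n = 3). The summed family stood at 843 ± 34.0 CPM in Veh and 767 ± 29.0 in GSK, and without Prkch at 616 ± 34.4 and 627 ± 24.5, a difference smaller than either SD. By class, the calcium-independent genes held 74.8% ± 1.08 of the level per kb in Veh and 72.9% ± 1.14 in GSK, the conventional genes 21.8% ± 1.09 and 23.2% ± 1.57, and the atypical genes 3.46% ± 0.0299 and 3.96% ± 0.494. These shares contain Prkch itself and are given without a test.

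**Figure D4:**
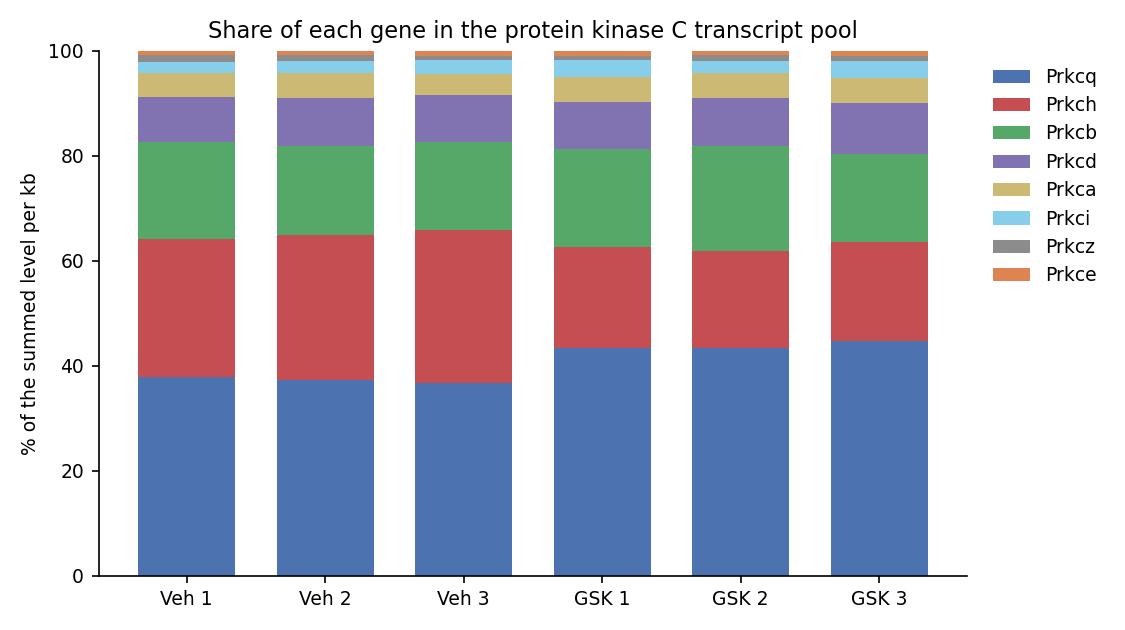
Share of each of the 8 protein kinase C genes in their summed level per kb (vertical axis, % of the sum), 1 bar per sample with 3 Veh bars on the left and 3 GSK bars on the right. The red segment, Prkch, spans 26.2% to 29.2% in Veh and 18.5% to 19.3% in GSK.

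The genes whose level over the 6 samples ran most like that of Prkch were named by Pearson's r of log2 CPM, as a description. The highest r, between 0.997 and 0.998, belonged to Ddit4, an inhibitor of the mTOR kinase complex, Fam71f2, Wdtc1, Grhpr, a glyoxylate and hydroxypyruvate reductase, and Srgap3. Ddit4 stood at 256 ± 10.3 CPM in Veh and 157 ± 2.04 in GSK. The lowest r, between -0.999 and -0.998, belonged to Erfe, a secreted regulator of iron, Eomes, a T-box factor of effector and memory CD8 T cells, the tetraspanin Cd82, the peptidase Tpp2 and the growth arrest gene Gadd45g. Eomes stood at 204 ± 9.38 CPM in Veh and 433 ± 17.7 in GSK. Such values are common here, since the groups stand apart in Prkch and every gene shares the same 6 libraries: of 11697 genes, 1309 had an r over 0.9 with Prkch and 1407 an r of at least that size with a negative sign. Within the family, r with Prkch was 0.80 for Prkcd, 0.61 for Prkce, 0.59 for Prkcz, 0.28 for Prkcb, 0.13 for Prkca, -0.51 for Prkci and -0.63 for Prkcq.

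The genes around the kinases were taken from 8 lists by role, chosen with earlier results of these data known, so their shares are a description. They held 76 genes, of which 75 had a row and 60 were tested. Of these 60, 11 rose and 15 fell at the adjusted p, or 18.3% and 25%, against 16.6% and 15.5% of all genes tested. With a fold change over 1.5 as well, 3 of the 60 rose and 2 fell, beside 2.22% and 4.09% of all genes tested. The median log2 fold change of the 60 was -0.053. Without GSK replicate 1, the adjusted p was met by 7 pathway genes that rose and 9 that fell, while the counts over all genes went from 1941 to 1288 higher and from 1819 to 1281 lower. Without Veh replicate 2, 7 pathway genes were higher and 16 lower, beside 1655 and 1530 of all genes.

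Upstream, among the phospholipase C genes, which make diacylglycerol, 2 of 7 tested rose and 1 fell. These are 28.6% and 14.3%, beside 16.6% and 15.5% of all genes tested. Plch1, an isoform known from neurons, stood at 5.93, 6.38 and 5.20 CPM in Veh and at 13.1, 11.9 and 11.6 in GSK, and rose with a log2 fold change of 1.06 (SE 0.13, adjusted p = 7.4e-05, edgeR). Plcg1, the isoform that acts behind the T cell receptor, stood at 244, 225 and 235 CPM in Veh and at 196, 210.3 and 182 in GSK, and fell by 0.26 on the log2 scale (SE 0.055, adjusted p = 0.0032). Plcg2, the isoform of B cells, rose from a mean of 28.6 to 36.1 CPM, with a log2 fold change of 0.33 (adjusted p = 0.0094), and that p was 0.060 without GSK replicate 1.

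Of the diacylglycerol kinases, which remove that lipid, 1 of 6 tested rose and 2 fell. These are 16.7% and 33.3%, beside 16.6% and 15.5% of all genes tested. Dgka, the alpha isoform, a known brake on T cell receptor signalling, stood at 543, 452 and 516 CPM in Veh and at 306, 368 and 266 in GSK. The groups did not overlap, yet the spread within each was wide, and the log2 fold change of -0.69 (SE 0.14) had an edgeR adjusted p of 0.020, or 0.052 without GSK replicate 1 and 0.065 without Veh replicate 1. Dgkd fell by 0.32 (SE 0.044, adjusted p = 0.00020), and Dgke rose by 0.32 (SE 0.089, adjusted p = 0.015), the latter with an adjusted p of 0.0502 without GSK replicate 1 and 0.068 without Veh replicate 3. Dgkz, the zeta isoform, the other known brake in T cells, stood at 317 ± 12.4 CPM in Veh and 299 ± 6.80 in GSK and did not pass, with a log2 fold change of -0.088 (edgeR adjusted p = 0.13).

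Among the 12 genes that prime, fold, dephosphorylate or anchor protein kinase C, 3 rose and 3 fell, none past a fold of 1.5. Each count is 25% of the 12, beside 16.6% higher and 15.5% lower of all genes tested. Pdpk1, the kinase that phosphorylates the activation loop of the family, fell from 135 ± 3.34 to 119.7 ± 6.31 CPM (log2 fold change -0.17, adjusted p = 0.017). Rictor, the subunit that defines the mTOR complex acting on the C-terminal sites, fell by 0.26 (adjusted p = 0.016). Phlpp1, a phosphatase of those sites, fell by 0.42 (SE 0.082, adjusted p = 0.0021). All 3 values are from edgeR. The adjusted p of Pdpk1 was 0.071 without Veh replicate 1, and that of Rictor was 0.063 without GSK replicate 1 or without Veh replicate 1.

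Among the other proteins that diacylglycerol recruits, 0 of 7 tested rose and 2 fell. These are 0% and 28.6%, beside 16.6% and 15.5% of all genes tested. Rasgrp1, the Ras activator used by T cells, stood at 290 ± 18.4 CPM in Veh and 283 ± 15.0 in GSK (log2 fold change -0.033, adjusted p = 0.67), and Prkd2, a protein kinase D, at 133 ± 9.03 and 127 ± 4.47 (log2 fold change -0.064, adjusted p = 0.40). Rasgrp2, a Rap activator, fell from 221, 219 and 238 CPM to 174, 182 and 173 (log2 fold change -0.36, SE 0.046, edgeR adjusted p = 0.00014). Rasgrp4 fell by 0.29 (adjusted p = 0.015, or 0.069 without GSK replicate 1 and 0.075 without Veh replicate 3).

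On the route from protein kinase C theta to NF-kB, 3 of 10 genes rose and 2 fell, none past a fold of 1.5. These are 30% and 20%, beside 16.6% and 15.5% of all genes tested. Bcl10, a linker protein of this route, stood at 43.0 ± 2.40 CPM in Veh and 45.3 ± 1.55 in GSK and did not pass, at a log2 fold change of 0.076 (edgeR adjusted p = 0.39). Malt1, the protease that acts with it, fell from 253, 245 and 239 to 191, 197 and 171 CPM (log2 fold change -0.40, SE 0.053, adjusted p = 0.00017). Of the kinases of the inhibitor of NF-kB, Chuk rose by 0.25 (adjusted p = 0.0066) and Ikbkb fell by 0.23 (adjusted p = 0.0082).

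Among partners of the atypical enzymes, 0 of 9 tested rose and 2 fell. These are 0% and 22.2%, beside 16.6% and 15.5% of all genes tested. Pard6g, a PAR6 adaptor, was low, at 3.81, 3.81 and 4.47 CPM in Veh and 2.36, 2.28 and 2.87 in GSK, and fell by 0.69 (SE 0.20, edgeR adjusted p = 0.020), or with an adjusted p of 0.064 without GSK replicate 1 and 0.072 without Veh replicate 3. Sqstm1, the p62 scaffold, fell from 207 ± 9.21 to 188 ± 2.06 CPM (log2 fold change -0.14, adjusted p = 0.029), and this was lost without GSK replicate 1 (adjusted p = 0.11), Veh replicate 2 (0.052) or Veh replicate 3 (0.14), and with a replicate block (0.055). Pard3 had 47 counts over all 6 samples and was not tested.

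The known substrates held the largest differences of the lists. Marcks, the myristoylated substrate that binds actin and the membrane, stood at 2.45, 3.49 and 4.89 CPM in Veh and at 13.3, 14.5 and 18.1 in GSK. Its relative Marcksl1 stood at 13.4, 16.8 and 17.2 in Veh and at 44.0, 36.0 and 42.2 in GSK. Both groups of samples were far apart for either gene, and the log2 fold changes were 2.08 (SE 0.21, adjusted p = 6.8e-05) for Marcks and 1.36 (SE 0.10, adjusted p = 4.1e-06) for Marcksl1, from edgeR. The adducins, which cap actin filaments, fell, Add3 by 0.34 (adjusted p = 0.00049) and Add1 by 0.23 (adjusted p = 0.0014), also from edgeR. So of the 6 tested substrates 2 rose, 2 fell and 2 did not pass. The shares that rose and fell were each 33.3%, beside 16.6% and 15.5% of all genes tested.

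**Figure D5:**
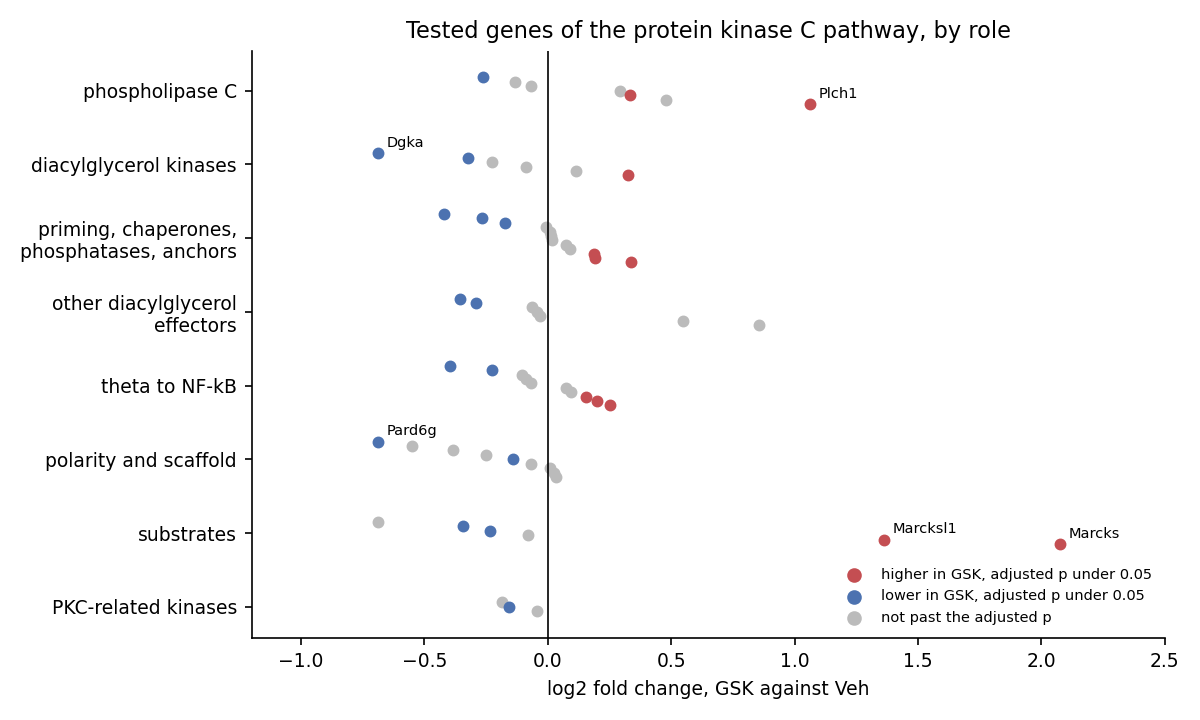
Log2 fold change between GSK and Veh (horizontal axis) of the 60 tested pathway genes, a dot per gene in the row of its list, red for genes higher and blue for genes lower in GSK at an adjusted p under 0.05, grey for the rest. The named dots are the 5 genes that also passed a fold change of 1.5, with Marcks at 2.08 and Dgka and Pard6g both at -0.69.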

How the data were processed

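The authors trimmed paired reads with Trimmomatic, aligned them with HISAT2 (version 2.1.0) on GRCm38 and assigned them to genes with HTSeq-count (version 0.11.2), and they deposited the raw counts. The annotation release and the strand setting of the counting are not given in the sources used here. All 16281 rows named a gene. The protein kinase C genes and the lists around them were chosen with earlier results of these data known.

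From the deposited counts, GSK and Veh were compared by the quasi-likelihood test of edgeR (version 4.0.16, in R version 4.3.3) with robust estimation, after TMM scaling and filterByExpr, and p-values were adjusted by Benjamini-Hochberg over 11698 genes. Genes with an adjusted p under 0.05, or with a fold change over 1.5 as well, were counted. Standard errors and 95% intervals were derived from the test statistic. An exact permutation test of a single gene cannot give a p under 0.1 with so few samples and was not used. Values of CPM used the TMM-scaled totals, and correlations used log2 values with a prior count of 2. DESeq2 (version 1.42.0) and other settings were alternatives. Transcripts were those of GENCODE M21, and gene positions came from RefSeq on GRCm38. The edgeR fit was also run on simulated counts, with large set differences and the same variability for every gene. That run does not cover the small differences or the uneven replicates of these data.

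All listed members were named, and of each list every gene past both thresholds, up to 3 past the adjusted p alone in order of p, and 12 genes by role whatever their values, and some of these items are not reported here. Replicate pairs within a group differed by more than sampling noise (chi-square per degree of freedom 3.95 to 9.02). P-values set each difference against the spread between these cultures, estimated with information shared across genes. Spread between mice and spread between cultures cannot be told apart here.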

Additional observations from a re-analysis of the deposited data

How the results depend on the processing

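The log2 fold changes of 35 tested genes were recomputed 420 times in all under other settings: 392 kept their direction and their side of the adjusted p, 21 lost it, 1 gained it and 6 changed sign. The fold change of Prkch, given with no test and selected on in these same samples, stayed negative throughout. Testing the fold change itself against 1.5 left 69 genes higher and 65 lower, against 260 and 479. Leaving out each sample in turn gave 1288 to 2090 genes higher at the adjusted p alone, the lowest without GSK replicate 1, and 0 to 1 protein kinase C genes other than Prkch higher, the 1 being Prkci without GSK replicate 2. For the pathway genes this range was 7 to 11 higher and 9 to 16 lower. Small differences that never passed the test changed sign when a sample was left out: without GSK replicate 3 the log2 fold change was 0.0056 for Prkca, 0.030 for Prkcb and 0.0019 for Rasgrp1, and without Veh replicate 1 it was 0.019, 0.025 and 0.021. Their lowest values on leaving out a sample were -0.086, -0.15 and -0.073. The cause was not tested. The same-numbered samples did not deviate together (correlations of -0.052, -0.081 and 0.16). That gives no sign of pairing, but such correlations cannot exclude it, and the labels leave it open. With the replicate block, 253 genes were called higher and 447 lower, 0 of the 7 other members and 11 and 14 pathway genes passed, and among named genes the call of Sqstm1 was lost. Dividing by coding length must raise every level per kb, since the coding part is shorter than the transcript. Only the changes of order given above are therefore informative. The 5 highest and 5 lowest correlated genes were the same with a prior count of 0.5. The filter on low counts left 15 pathway genes untested.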

Other observations

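The deposited table also carries gene ontology terms and pathway names for each gene, which the comparisons did not use. Prkch had 31 terms and 2 pathways there, fewest of the 8 members in both, while Prkca had 94 terms and 71 pathways. All 8 members shared 17 terms, such as protein kinase C activity, which 16 of 15099 annotated genes carried. A term for raising the activity of NF-kB was given to Prkcb, Prkch, Prkcq, Prkci and Prkcz, and a term for kinase activity independent of calcium to Prkcd, Prkce and Prkch. A term for protein kinase C activity dependent on calcium was among those shared by all 8 members, so these terms do not follow the classes given above. The pathway named for T cell receptor signalling, with 100 of 6600 annotated genes, held Prkcq and no other member.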
